A study of Homo sapiens with 6 samples.

Results

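The MAPK pathways are shut off by proteins that the pathways themselves induce, and 10 genes for such proteins were followed in the triple-negative breast cancer cell line MDA-MB-231 after treatment with NCD. They comprise 6 dual-specificity phosphatase genes (DUSP1, DUSP4, DUSP5, DUSP6, DUSP10 and DUSP16), 2 Sprouty genes (SPRY2 and SPRY4) and 2 SPRED genes (SPRED1 and SPRED2). The genes were chosen by name, and each was matched by its symbol to 1 Ensembl identifier among the 63241 in the RNA-seq tables. Cells received 5 μM NCD (nitidine chloride, a plant alkaloid) or 0.1% DMSO, the vehicle, for 24 h, with 3 libraries in each of the 2 groups. All libraries carried the same label for genotype, wild type, so 1 cell line, 1 dose and 1 time stand behind every value. The labels do not say whether the 3 libraries of a group came from separate cultures, and p-values therefore measure the spread between these libraries, which may be technical.

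As background, ERK is switched on by the RAS, RAF and MEK chain and is switched off when a dual-specificity phosphatase removes the phosphates from its activation loop. DUSP1, DUSP4 and DUSP5 are nuclear phosphatases, DUSP6 is a cytoplasmic one that prefers ERK, and DUSP10 and DUSP16 act mainly on the stress kinases JNK and p38. Sprouty and SPRED proteins act further up, between the receptor and RAF, and SPRED1 and SPRED2 recruit neurofibromin, the NF1 product, to inactivate RAS. Many of these genes are themselves transcribed in response to ERK, which closes the feedback loop, and in tumour cells with an active RAS pathway their transcripts are often used as a readout of it.

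Library totals lay between 18223594 and 19410833 expected counts for DMSO and between 18232169 and 21629653 for NCD. For NCD replicates 2 and 3 the description line ends in another cell line number, whereas the cell line field gives MDA-MB-231 for all 6, and where a call of the 10 genes differed with NCD replicate 1 alone, that value is also given. Of 4 markers that this mesenchymal line is known to express (VIM, CD44, CAV1 and AXL), the lowest value in any library was 260.7 CPM, for CD44 with NCD. The estrogen receptor gene ESR1 and the E-cadherin gene CDH1 did not exceed 0.384 and 0.207 CPM, while PGR was at most 0.155 CPM and EPCAM lay from 2.52 to 4.20 CPM. The leukocyte markers PTPRC, CD3E, CD79A and CD14 did not exceed 0.961 CPM. CPM are counts scaled to a common library size after TMM scaling (a correction of each library total for its composition). Among 15295 genes tested, 31.0% were called differentially expressed, which required an adjusted p below 0.05 (edgeR quasi-likelihood test, Benjamini-Hochberg) and an absolute log2 fold change above 1. In bulk RNA, fewer cells with a transcript and less transcript per cell cannot be told apart.

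With NCD, DUSP1 rose and SPRED1 and SPRED2 fell past both thresholds, so that 3 of the 10 genes were differentially expressed, 1 higher and 2 lower. Among all tested genes 31.0% were called, 13.5% higher and 17.5% lower, so the share among the 10 was near the background. By the adjusted p alone, 9 of the 10 passed, 3 higher (DUSP1, DUSP4, DUSP10) and 6 lower (DUSP5, DUSP6, SPRY2, SPRY4, SPRED1, SPRED2), against 69.3% of all tested genes, 35.3% higher and 34.1% lower. In what follows, rose and fell refer to that adjusted p, and the fold threshold is named where it was passed. All 10 genes passed the filter on low counts. The same 9 genes had no overlap in CPM between the groups, 3 above and 6 below, which held for 72.6% of all tested genes, 37.2% above and 35.3% below. The median log2 fold change over the 10 was -0.52, beside 0.04 over all tested genes. An exact two-sided permutation test over the libraries gave p = 0.1 for those 9 genes (adjusted over the 10, 0.111) and p = 0.2 for DUSP16 (adjusted 0.2). With 3 libraries against 3, 0.1 is the smallest p that this test can reach.

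**Figure D1:**
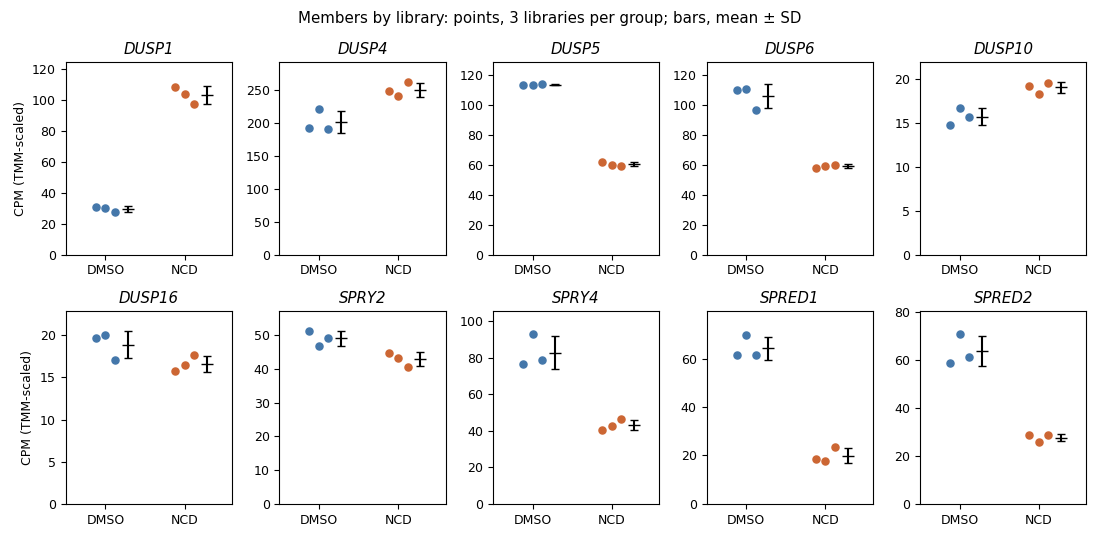
CPM (TMM-scaled, each axis from 0) of the 10 genes in the 3 DMSO and the 3 NCD libraries, 1 panel per gene, with points for libraries and bars for the mean ± SD. The DUSP1 points with NCD lie from 97.5 to 108.8 CPM, above 27.7 to 30.7 with DMSO, the SPRED1 and SPRED2 points lie below those with DMSO, and only the DUSP16 points overlap.

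The upstream sequences of 3 genes are shown because their transcripts moved differently: DUSP1 was called higher, SPRED2 was called lower, and SPRY2 had the smallest change of those that passed the adjusted p. They are RefSeq sequences on GRCh38.p14, 5′ to 3′ on the gene's own strand, and end at the base before the start or, for SPRED2, where an annotated exon begins. Capitals mark, on either strand, the cAMP response element TGACGTCA and its partial form TGACG. They also mark the E box CACGTG, and the TATA box written as TATAAA.
DUSP1, chr5:172771196-172771445, minus strand: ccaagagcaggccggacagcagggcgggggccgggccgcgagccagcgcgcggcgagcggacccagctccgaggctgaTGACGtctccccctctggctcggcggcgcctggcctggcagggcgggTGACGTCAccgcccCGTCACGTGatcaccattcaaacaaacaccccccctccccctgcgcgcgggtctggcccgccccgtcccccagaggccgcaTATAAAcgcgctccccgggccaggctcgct
SPRED2, chr2:65432638-65432849, minus strand: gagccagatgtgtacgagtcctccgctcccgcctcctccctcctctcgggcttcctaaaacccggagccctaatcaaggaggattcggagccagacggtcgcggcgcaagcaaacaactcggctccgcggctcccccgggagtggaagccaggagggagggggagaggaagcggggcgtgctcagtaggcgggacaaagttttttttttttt
SPRY2, chr13:80341127-80341376, minus strand: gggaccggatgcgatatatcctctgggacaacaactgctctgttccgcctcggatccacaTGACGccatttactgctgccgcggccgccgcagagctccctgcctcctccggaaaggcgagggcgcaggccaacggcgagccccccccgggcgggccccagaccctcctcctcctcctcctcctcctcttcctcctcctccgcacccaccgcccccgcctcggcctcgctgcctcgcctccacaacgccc
In DUSP1, counted from the start base as 0, TGACGTCA stood at -125 to -118, TATAAA at -30 to -25, and CACGTG at -108 to -103, where it overlaps a TGACG on the reverse strand at -111 to -107. A further TGACG began at -172. The SPRY2 run held a TGACG at -190 to -186, and the SPRED2 run held none of the marked motifs. Outside the printed runs, TGACG also matched in windows of DUSP10, SPRY4 and SPRED2, and a second annotated start of SPRED2 had TATAAA at -31 to -26 and the AP-1 letters TGANTCA at -6 to 0 and 34 to 40. Over 34796 RefSeq windows of 300 bases, read on both strands, TGACGTCA was in 1.84%, TGACG in 24.5%, CACGTG in 7.20%, TATAAA in 11.6% and TGANTCA in 7.73%. Windows were found for 8 of the 10 genes, and those of DUSP6 and SPRED1 lie within annotated exons and are not printed. TGACGTCA was in the windows of DUSP1 alone among the 8. The GC box letters GGGCGG, left in lower case above, were in 44.9% of all windows and in at least 1 window of DUSP1, DUSP10, DUSP16, SPRY2, SPRY4, SPRED1 and SPRED2. Letters in these windows are a description of the sequence and do not show that a factor was bound.

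DUSP1 encodes an immediate-early phosphatase of the nucleus that acts on p38, JNK and ERK. Its gene is the shortest of the 10, spanning 3.1 kb (chr5:172768090-172771195 on GRCh38, minus strand, GENCODE 29). DUSP1 was at 30.7, 30.6 and 27.7 CPM in the DMSO libraries and at 108.8, 103.9 and 97.5 CPM with NCD. The lowest NCD library was thus more than 3 times the highest DMSO library. The difference was 1.80 ± 0.07 (log2 fold change ± SE), or 3.49-fold, at an adjusted p of 9.41e-08 (edgeR quasi-likelihood, Benjamini-Hochberg). Across 17 alternative settings its log2 fold change stayed between 1.73 and 2.0.

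DUSP4, another nuclear phosphatase, has a gene of 17.6 kb (chr8:29333064-29350668, minus strand). It measured 191.5, 221.1 and 191.4 CPM with DMSO and 248.4, 240.5 and 261.3 CPM with NCD. The groups did not overlap, and DMSO replicate 2 came nearest to the NCD libraries. DUSP4 rose by 0.31 ± 0.07 (log2), with an adjusted p of 0.00397 in edgeR, and remained under the fold threshold in each of the settings tried, with values from 0.25 to 0.51.

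DUSP5 and DUSP6 encode phosphatases that act on ERK in particular, in the nucleus and in the cytoplasm. DUSP5 (13.7 kb, chr10:110497838-110511544, plus strand) was at 113.5, 112.9 and 113.9 CPM with DMSO and at 62.1, 59.8 and 59.3 CPM with NCD. The 3 libraries of each group lay within a few CPM of each other, so the gap between the groups was far larger than the spread within them. DUSP5 fell by 0.91 on the log2 scale (SE 0.06, adjusted p = 9.17e-07 in edgeR), to 53.2% of the DMSO level.

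DUSP6 (6.0 kb, chr12:89347232-89353271, minus strand) was at 110.0, 110.6 and 96.4 CPM with DMSO and at 57.9, 59.4 and 60.0 CPM with NCD. All NCD libraries were below the lowest DMSO library, replicate 3. DUSP6 fell by 0.84 (log2, SE 0.07, adjusted p = 6.95e-06 in edgeR), to 55.9% of the DMSO level. Its exons overlap those of the antisense gene AC024909.2, and whether counting used strand is not given in the sources used here. The antisense gene held at most 1.57% of the summed counts of the pair in any library, and the sum gave a log2 ratio of -0.85. DUSP5 and DUSP6 did not pass the fold threshold in any setting that kept it, with log2 fold changes from -0.95 to -0.71 and from -0.93 to -0.64.

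DUSP10 and DUSP16 encode the phosphatases of JNK and p38. DUSP10 (40.8 kb, chr1:221701424-221742176, minus strand) was at 14.8, 16.7 and 15.6 CPM with DMSO and at 19.2, 18.3 and 19.5 CPM with NCD. Every NCD library was above every DMSO library, and the nearest pair was DMSO replicate 2 and NCD replicate 2. DUSP10 rose by 0.28 ± 0.09 (log2, adjusted p = 0.0198 in edgeR). That adjusted p went from 0.00193 to 0.0986 over the alternatives and was above 0.05 with DESeq2 (0.0649), with no filter on low counts (0.0523), when DMSO replicate 1 (0.0986), DMSO replicate 3 (0.0866) or NCD replicate 1 (0.0758) was left out, and with NCD replicate 1 alone (0.0633).

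DUSP16 (88.2 kb, chr12:12474210-12562383, minus strand) was at 19.6, 20.03 and 17.0 CPM with DMSO and at 15.8, 16.5 and 17.6 CPM with NCD. DMSO replicate 3 lay below NCD replicate 3, and the groups overlapped. The log2 difference was -0.18 ± 0.10 (adjusted p = 0.122 in edgeR) and turned to 0.01 (adjusted p = 0.909) when libraries were scaled by their totals. Without DMSO replicate 3 it was -0.29 with an adjusted p of 0.0432, in a range from 0.0432 to 0.909 over the alternatives.

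SPRY2 and SPRY4 encode Sprouty proteins, which restrain signalling from receptor tyrosine kinases to RAS and RAF. SPRY2 (5.0 kb, chr13:80335976-80340951, minus strand) was at 51.3, 46.7 and 49.3 CPM with DMSO and at 44.9, 43.3 and 40.7 CPM with NCD. The groups did not overlap, with NCD replicate 1 and DMSO replicate 2 nearest to each other. SPRY2 fell by 0.19 (log2, SE 0.07, adjusted p = 0.0396 in edgeR), but its log2 difference was 0.00 (0.0045, adjusted p = 0.954) under scaling by library totals. Over the alternatives the adjusted p ran from 0.027 to 0.954. It was above 0.05 also with the replicate block (0.0677), with no filter on low counts (0.106), when DMSO replicate 1 (0.0832) or 3 (0.0685), or NCD replicate 2 (0.0947) or 3 (0.063) was left out, and with NCD replicate 1 alone (0.442).

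SPRY4 (16 kb, chr5:142310427-142326455, minus strand) was at 76.5, 93.3 and 79.0 CPM with DMSO and at 40.5, 42.6 and 46.3 CPM with NCD. DMSO replicate 2 stood highest, and all 3 NCD libraries were well below the DMSO group. SPRY4 fell by 0.94 (log2, SE 0.09, adjusted p = 1.83e-05 in edgeR), just inside the fold threshold of 1. It passed that threshold without DMSO replicate 1 (-1.03), without DMSO replicate 3 (-1.01), without NCD replicate 3 (-1.01) and with NCD replicate 1 alone (-1.01), which raised the genes called to 4 of the 10. SPRY4-AS1 lies on the opposite strand within the locus without sharing exons, and held from 8 to 22 counts per library.

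SPRED1 and SPRED2 encode the membrane-bound partners of neurofibromin, and theirs are the longest genes of the 10. SPRED1 (104.9 kb, chr15:38252326-38357249, plus strand) was at 61.3, 69.7 and 61.7 CPM with DMSO and at 18.5, 17.7 and 23.6 CPM with NCD. NCD replicate 3 kept the most, still far below the DMSO libraries. SPRED1 fell by 1.69 (log2, SE 0.12, adjusted p = 1.93e-06 in edgeR), to 31.1% of the DMSO level.

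SPRED2 (121.8 kb, chr2:65310851-65432637, minus strand) was at 58.8, 70.6 and 61.3 CPM with DMSO and at 28.4, 25.8 and 28.6 CPM with NCD. The groups were again well apart. SPRED2 fell by 1.20 (log2, SE 0.09, adjusted p = 3.21e-06 in edgeR), to 43.4% of the DMSO level. Both SPRED genes kept an absolute log2 fold change above 1 in all 17 alternative settings. The values ran from -1.84 to -1.49 for SPRED1 and from -1.28 to -1.01 for SPRED2. The 17 include the setting with no fold threshold, which repeats the reported estimates.

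**Figure D2:**
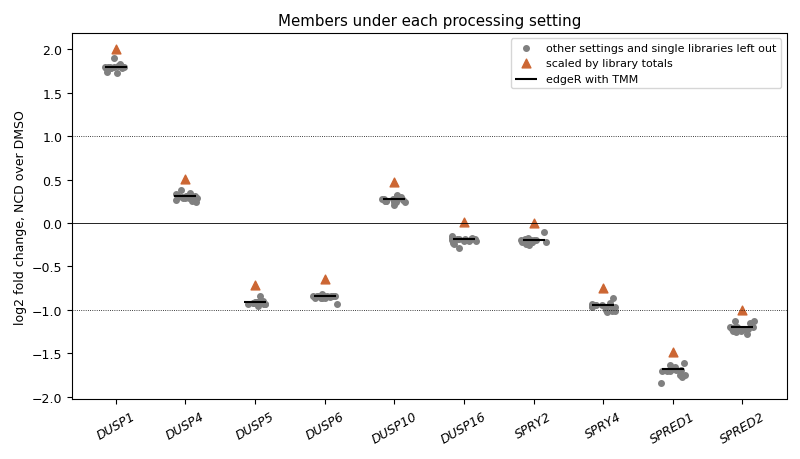
Log2 fold change (NCD over DMSO) of each of the 10 genes under the reported fit (black bar), under scaling by library totals (triangle) and under the other settings, single libraries left out included (grey points), with dotted lines at the fold threshold. The triangles are higher than the bars for all 10 genes, and those of DUSP16 and SPRY2 reach 0.01 and 0.00.

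Levels were compared between genes per length, as RPKM over the summed exon length of each gene. With DMSO the order by mean RPKM was DUSP5 (43.4 ± 0.186, SD, n = 3), DUSP4 (27.7 ± 2.36), DUSP6 (22.8 ± 1.74), SPRY2 (16.2 ± 0.751), DUSP1 (14.7 ± 0.839), SPRY4 (12.6 ± 1.38), SPRED2 (12.3 ± 1.21), SPRED1 (7.78 ± 0.573), DUSP10 (5.39 ± 0.331) and DUSP16 (3.30 ± 0.283). Neighbours in that order overlapped between libraries for DUSP1 and SPRY4 and for SPRY4 and SPRED2. With NCD the order was DUSP1 (51.2 ± 2.80), DUSP4 (34.5 ± 1.45), DUSP5 (23.1 ± 0.574), SPRY2 (14.1 ± 0.694), DUSP6 (12.8 ± 0.237), SPRY4 (6.57 ± 0.443), DUSP10 (6.52 ± 0.211), SPRED2 (5.35 ± 0.308), DUSP16 (2.91 ± 0.163) and SPRED1 (2.41 ± 0.385). There SPRY4 and DUSP10 overlapped, as did DUSP16 and SPRED1. DUSP1 thus went from the fifth place to the first, and SPRED1 from the eighth to the last.

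The summed level of the 6 phosphatase genes was 117.3 ± 4.55 RPKM with DMSO and 130.9 ± 2.37 RPKM with NCD (SD, n = 3, exact permutation p = 0.1). Within that sum the make-up differed more than the total. DUSP1 took 12.5% ± 0.410 of it with DMSO and 39.1% ± 1.63 with NCD, whereas DUSP5 went from 37.0% ± 1.59 to 17.6% ± 0.144 and DUSP6 from 19.4% ± 0.918 to 9.75% ± 0.351. DUSP4 held 23.6% ± 1.26 and 26.3% ± 1.25. The summed level of the 4 Sprouty and SPRED genes was 48.9 ± 2.44 RPKM with DMSO and 28.5 ± 0.515 RPKM with NCD (exact permutation p = 0.1). SPRY2 made up 33.2% ± 3.06 of it with DMSO and 49.7% ± 2.80 with NCD, and SPRED1 15.9% ± 0.368 and 8.47% ± 1.24. Neither the phosphatase sum nor the Sprouty and SPRED sum overlapped between the groups. Of all tested genes taken singly, 72.6% did not overlap in CPM.

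**Figure D3:**
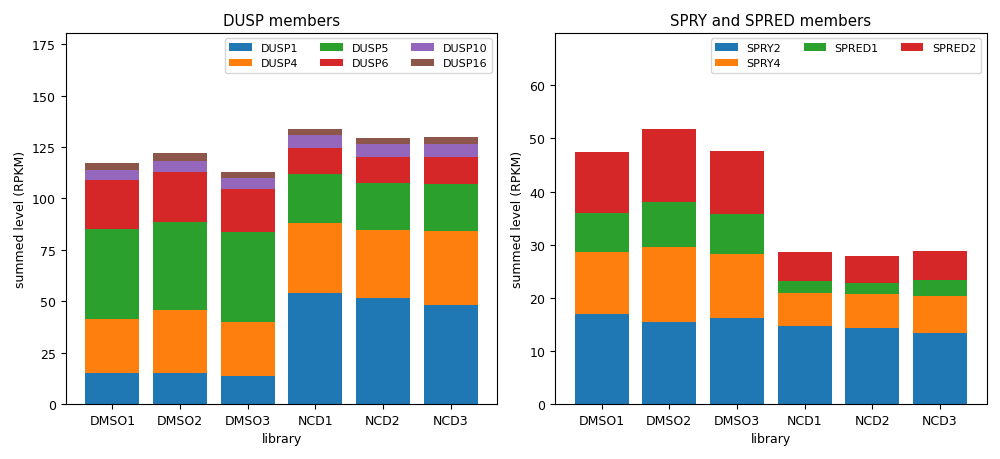
Summed RPKM of the 6 phosphatase genes (left) and of the 4 Sprouty and SPRED genes (right) in each library, stacked by gene, without error bars because each bar is 1 library. The phosphatase stacks have similar heights (112.8 to 133.7 RPKM) with a much larger DUSP1 layer under NCD, and the Sprouty and SPRED stacks go from 47.4 to 51.7 RPKM with DMSO down to 27.9 to 28.8 RPKM with NCD.

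Ratios of genes within a library do not depend on how libraries are scaled. For 5 pairs of related genes, chosen after their values were seen, the log2 ratios of CPM did not overlap between the groups. The exact permutation p was 0.1 for each (adjusted over the 5 pairs 0.1), the smallest that this test can reach. Because the pairs were chosen by their values, neither this p nor the lack of overlap tests them. How often other pairs of genes do not overlap was not computed. DUSP1 over DUSP6 was -1.84, -1.86 and -1.80 with DMSO and 0.91, 0.81 and 0.70 with NCD, so DUSP1 had fewer counts than DUSP6 in every DMSO library and more in every NCD library. DUSP4 over DUSP5 went from a mean of 0.82 ± 0.13 to 2.05 ± 0.08 (SD, n = 3). SPRY4 over SPRY2 went from 0.75 ± 0.22 to 0.00 ± 0.17. SPRED1 over SPRED2 was near 0 with DMSO (0.02 ± 0.04) and -0.48 ± 0.18 with NCD. For DUSP10 over DUSP16 the means were -0.27 ± 0.14 and 0.19 ± 0.08.

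Of 7 remaining genes of the same families, 4 passed the filter on low counts. DUSP2 had no count in any library, and DUSP9 (3 to 9 counts) and SPRY3 (1 to 9 counts) were too low to test. DUSP8, a phosphatase of JNK and p38, was read 12, 12 and 5 times with DMSO against 55, 50 and 70 times with NCD. Although few, its counts were all higher with NCD, and DUSP8 was the only relative called differentially expressed (log2 2.30, SE 0.33, adjusted p = 0.000224 in edgeR). It was not tested, and the call was lost, when at least 10 counts were required in every library, since DMSO replicate 3 had 5. DUSP7, a cytoplasmic ERK phosphatase, rose from 32.2 ± 0.260 to 50.6 ± 0.887 CPM (log2 0.65, SE 0.06), and SPRY1 fell by 0.70 (log2, SE 0.11), with adjusted p of 1.94e-05 and 0.000366 in edgeR. For SPRED3 the log2 difference was 0.02 with an SE of 0.11 (adjusted p = 0.882 in edgeR).

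The pathways that these proteins restrain were read from lists written by hand. Of 27 genes of the RAS-ERK cascade, 26 were tested, and 30.8% of these were called, against 31.0% of all tested genes. All tested genes divided into 17.5% called lower and 13.5% called higher. In this list 8 were called lower and none higher, and the median log2 fold change was -0.74. By the adjusted p alone 15 were lower and 7 higher. BRAF, the RAF kinase that signals most strongly to MEK, went from 41.5 to 5.16 CPM (log2 -3.0, SE 0.15, adjusted p = 2.53e-07 in edgeR), and the receptor gene EGFR from 169.8 to 27.9 CPM (log2 -2.61, SE 0.08). ELK3, an ETS factor that ERK phosphorylates, fell by 1.64 (log2, SE 0.07). MAPK3, which encodes ERK1 and was named after its values were seen, went from 29.8 ± 2.83 to 42.2 ± 3.13 CPM (log2 0.50, SE 0.09, adjusted p = 0.00114 in edgeR).

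Among 33 genes of the JNK and p38 cascades, all tested, 14 were called, 4 higher and 10 lower, with a median of -0.46. The share called was 42.4%, against 31.0% of all tested genes (13.5% higher, 17.5% lower). With the size factors of DESeq2 the split in the list was 2 higher and 10 lower. TAOK3, MAP3K5 (ASK1) and MAP3K20 (ZAK), kinases at the top of the stress cascades, fell, with log2 fold changes of -3.37, -2.99 and -2.18 (SE 0.13, 0.14 and 0.11). MAP3K12, MAP3K6 and the scaffold gene MAPK8IP1 rose, with log2 fold changes of 1.11, 1.01 and 1.01 (SE 0.12, 0.09 and 0.10). MAP3K6 (1.0144) and MAPK8IP1 (1.0105) were only just past the fold threshold. Of the substrates of DUSP10 and DUSP16, MAPK8 and MAPK14 were named after their values were seen. MAPK8 (JNK1) went from 85.8 ± 2.90 to 27.5 ± 1.58 CPM (log2 -1.64, SE 0.07, adjusted p = 1.25e-07 in edgeR). MAPK14 (p38 alpha) went from 159.3 ± 5.44 to 105.0 ± 6.14 CPM (log2 -0.60, SE 0.06, adjusted p = 3.05e-05 in edgeR). The other JNK and p38 genes, also named after their values were seen, went both ways. MAPK9 and MAPK11 fell, with log2 fold changes of -0.59 and -0.62. MAPK12 and MAPK13 rose, with 0.60 and 0.32, and MAPK10 did not pass (adjusted p = 0.0665 in edgeR).

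Other brakes on RAS and its receptors were called in 9 of 17 tested genes, 8 lower and 1 higher, with a median of -0.53. The share called was 52.9%, against 31.0% of all tested genes (17.5% lower, 13.5% higher). The RAS GTPase-activating genes RASAL2 and RASA1 fell, with log2 fold changes of -3.90 and -3.36 (SE 0.14 and 0.12), and LRIG1, which restrains EGFR, fell by 2.32 (SE 0.18). NF1, the partner of the SPRED proteins, went from 33.2 ± 4.87 to 11.7 ± 1.36 CPM (log2 -1.50, SE 0.13), and ERRFI1, an inhibitor of EGFR, from 291.0 ± 14.5 to 92.1 ± 1.91 CPM (log2 -1.66, SE 0.06). These last genes were named after their values were seen, with adjusted p of 8.99e-06 and 4.63e-08 in edgeR.

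Genes known to respond to ERK went both ways. Of 28 tested, 13 were called (46.4%, against 31.0% of all tested genes), 7 higher and 6 lower, with a median of -0.43. Scaling by library totals made that split 8 higher and 4 lower. The immediate-early gene EGR1 was at 1.99, 1.75 and 1.75 CPM with DMSO and at 21.3, 20.7 and 20.7 CPM with NCD. That is a log2 fold change of 3.51 ± 0.11 (adjusted p = 3.03e-08 in edgeR), the largest of the list. The AP-1 gene JUNB and the sphingosine kinase gene SPHK1 rose by 1.96 and 1.53 (SE 0.10 and 0.08). SLC20A1, TGFA and PLAUR, a phosphate transporter, an EGFR ligand and the urokinase receptor, fell, with log2 fold changes of -1.77, -1.62 and -1.52 (SE 0.07, 0.10 and 0.06). Within the FOS family, named after the values were seen, FOS and FOSB rose by 2.39 and 2.71 (SE 0.19 and 0.31), and FOSL1 fell by 1.15 (SE 0.06). The levels of FOS and FOSB were low, going from 1.59 to 8.31 and from 0.48 to 3.17 CPM. FOSL1 went from 261.8 to 118.0 CPM and was the most abundant of them in both groups.

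**Figure D4:**
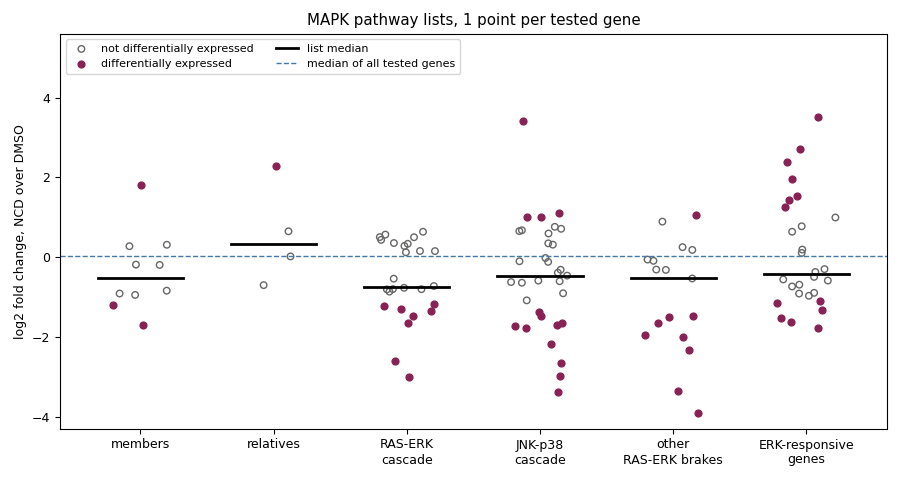
Log2 fold change (NCD over DMSO) of every tested gene of the 10 genes, their relatives and 4 pathway lists, 1 point per gene, filled where differentially expressed, with a bar at each list median and a dashed line at 0.04, the median of all tested genes. The called genes of the RAS-ERK cascade all lie below 0, from -1.16 to -3.0, while the ERK-responsive genes have called members on both sides, up to 3.51.

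Gene length went along with these differences across the whole data set. In 10 bins of span with equal numbers of genes, over 14692 tested genes, the median log2 fold change was 0.24 in the shortest bin (up to 3.7 kb), 0.43 at 13.2 to 20.1 kb, -0.93 at 89.7 to 153.1 kb and -2.09 above that, and 46.0% and 79.2% of the genes in the last 2 bins were called lower. SPRED1 and SPRED2 are the 2 of the 10 genes in the bin from 89.7 kb, and their log2 fold changes were 0.75 and 0.27 below that bin's median of -0.93. The part of gene length in their fall was not tested. Of the genes up to 20.1 kb, those farthest from the median of their own bin were DUSP5 (1.34 below the median of its bin), DUSP6 (1.22 below), SPRY4 (1.38 below) and DUSP1 (1.56 above). DUSP4, DUSP10 and DUSP16 were within 0.17 of the median of theirs, at -0.12, 0.17 and 0.17, and SPRY2 was 0.58 below. These differences are descriptions without a test. In the lists, the same split was seen: of genes of at least 89.7 kb, 7 of 12 in the RAS-ERK cascade, 9 of 11 in the JNK and p38 cascades and 7 of 10 of the other brakes were called lower, against 1840 of 2939 among all, and of genes up to 20.1 kb none of 7, 9 and 2 were. Among the ERK-responsive genes up to 20.1 kb, 3 of 19 were called lower and 6 higher, against 288 and 1233 of 5877 among all.

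**Figure D5:**
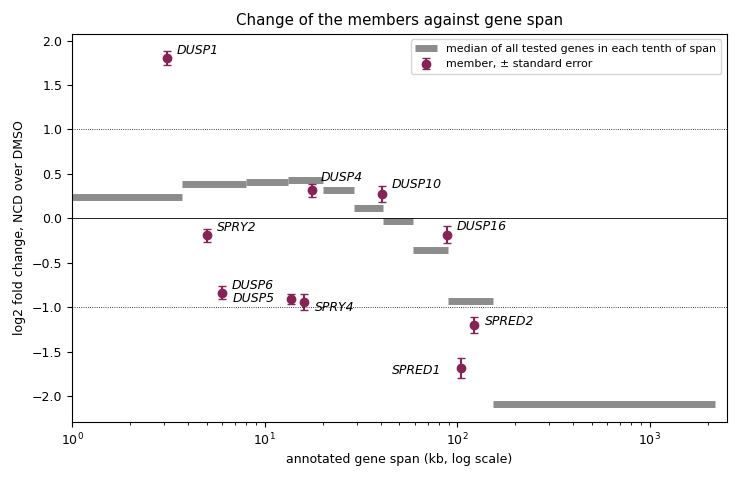
Log2 fold change (NCD over DMSO, ± standard error) of the 10 genes against annotated gene span (kb, log axis), with grey bars at the median of all tested genes in each of 10 bins of span and dotted lines at the fold threshold. DUSP1 lies above the bar of its bin, DUSP5, DUSP6 and SPRY4 lie below theirs by 1.22 to 1.38, and SPRED1 and SPRED2 fall in the range where the bar is itself at -0.93.

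Profiles over the 6 libraries were compared with those of 11049 genes whose mean reached 5 CPM, by the Euclidean distance between log2 CPM centred on each gene's mean. The genes most like DUSP1 were LSR, CDH24 and CXCL2, at distances of 0.105, 0.109 and 0.135, with log2 fold changes of 1.82, 1.91 and 1.85. Those most like DUSP5 were ACP6, CSRP1 and TEX10, at 0.025, 0.059 and 0.075, with log2 fold changes of -0.94, -0.91 and -0.97. With 6 libraries in 2 groups, such a likeness is mostly that of the difference between the groups.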

How the data were processed

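RNA-seq was done on 6 libraries. The deposited values are expected counts per Ensembl gene, produced by the authors with HISAT2 for alignment to GRCh38 and RSEM for quantification, and not normalized. Versions, the annotation release and whether counting used strand are not given in the sources used here. Lines with no gene (25 per library) were skipped. Symbols were found for 62666 of 63241 identifiers. Expected counts were rounded, filtered with filterByExpr, scaled by TMM (factors 0.911 to 1.092) and compared with glmQLFit and glmQLFTest in edgeR 4.0.16 (R 4.3.3). Calls used the study's fold threshold with adjusted p. RPKM are CPM per kb of summed exons of GENCODE 29, which holds 58228 of the identifiers. DESeq2 1.42.0 and limma 3.58.1 (voom) were alternatives.

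On simulated counts for this comparison, 89 of 89 genes changed by 2 and 110 of 110 changed by 3 (log2) were recovered among 14611, with 2 false calls. Smaller changes were not simulated. All 10 genes changed by less than 2, so this recovery does not cover changes of their size. Libraries of a group differed by more than sampling noise (chi-square over its degrees of freedom from 2.07 to 17.0).

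The 10 genes and all lists were chosen with earlier results of these data known. Genes named were the 10, their relatives and, per list, up to 3 called higher and 3 lower with the largest change and a mean from 5 CPM up, the overlapping genes with counts, the 3 nearest profiles and the markers. Some genes under this rule are not reported here. Others are said to be chosen after their values were seen. Promoter windows are RefSeq's, and 9 motifs were searched, of which CCGGAAG, the CArG box and TGATGCAA matched no window of the 8 genes.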

Additional observations from a re-analysis of the deposited data

How the results depend on the processing

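The count of 3 of the 10 genes was 3 to 4 when 1 library was left out and 3 under the other settings that kept the fold threshold, apart from 4 with NCD replicate 1 alone, an alternative added after seeing the data. Leaving out 1 library gave 1 relative, 7 to 10 genes of the RAS-ERK cascade, 12 to 15 of the JNK and p38 cascades, 8 to 9 other brakes, 13 to 15 ERK-responsive genes and 4653 to 5049 of all genes. With no fold threshold the counts were 9 of the 10 genes, 3 relatives, 22, 27 and 26 in the RAS-ERK, JNK and p38 and ERK-responsive lists, and 10602 of all genes. With at least 10 counts in every library DUSP8 was not tested and no relative was called (0 of 3 tested). Scaling by library totals moved the median of all genes by 0.20 (log2, from 0.04 to 0.23) and reversed DUSP16 (0.0138) and SPRY2 (0.0045), neither past the test. The share of called genes that were higher was then 56.2% against 43.6%, and 66.7% against 53.8% for ERK-responsive genes, while DESeq2 size factors gave 16.7% against 28.6% for the JNK and p38 list. Causes of these shifts beyond the scaling itself were not tested. Deviations from the group mean correlated between libraries of the same replicate number at 0.216, -0.185 and 0.023 for replicates 1, 2 and 3. These values cannot decide whether the replicate numbers pair the samples, because deviations from a mean of 3 libraries are tied to each other. With the replicate block, 3 of the 10 genes and 4723 of all genes were called. Genes with a few counts per library, such as DUSP9 and SPRY3, are beyond this depth, and the depth sets counting error only.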
